A study of Mus musculus with 44 samples.

Results

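Cadps2, Rnf148 and Cadps were followed through every data type of a mouse medulloblastoma series, together with the open-chromatin regions that name one of them as a flanking gene. They were chosen by their measured RNA levels in the bulk tumor table, where Cadps2 and Rnf148 were far higher in one kind of tumor than in the other, with Cadps added as the other gene of the family. That tumor contrast is therefore given here as values, with no test. All 3 genes are among the 16078 genes of the tumor table, and Cadps2 and Cadps are 2 of the 15926 genes of the treated-line table, where Rnf148 is not analysed here. Of 88981 open-chromatin regions in the larger region table, 30 name a member (15 on chromosome 6 around Cadps2 and Rnf148, 15 on chromosome 14 around Cadps), and of 88258 in the other, 27 do (11 and 16).

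Cadps2 and Cadps encode the family of calcium-dependent activator proteins for secretion, which prime dense-core vesicles so that calcium can trigger their fusion with the plasma membrane. In the cerebellum, the origin of medulloblastoma, CADPS2 is known from granule and Purkinje neurons, where it promotes release of the neurotrophin BDNF. Rnf148 and its neighbour Rnf133 encode RING-finger ubiquitin ligases known from testis. Both lie within the much longer Cadps2 gene on the same strand, so reads of Cadps2 precursor RNA and reads of the nested genes cannot be told apart.

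The series measured bulk RNA in 8 GTML and 6 GTS tumors and in 2 lines, GTML3 and preGTS1, each under DMSO or DOX with 3 samples per group. GTML mice carry a MYCN transgene switched by a tetracycline-controlled activator that the glial Glt1 promoter drives, and GTS tumors come from a related model driven from Sox9. DMSO is the solvent control and DOX the label of the treatment, taken as doxycycline, the drug that such promoters respond to. Open chromatin was read by ATAC-seq, in which a transposase cuts accessible DNA. Its duplicates cover each line with either treatment, 2 GTS sources named GTS1 and GTS2, and fractions labelled GFP and NoneGFP. Single-cell RNA came from 1 library labelled GTML_SOX9-GFP (4645 cells) and 1 labelled fGTS2 (4498 cells), which share 6 cell barcodes. A single line stands for each kind, so a difference between the lines cannot be told apart from one between the kinds. No label says that replicates were grown separately, and a p-value here may therefore reflect technical spread alone.

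The depth recovered from the deposited values was 10861225 to 24671854 reads per treated-line RNA library, and 827366 to 14953541 reads in listed regions per ATAC library, with GTML3 under DMSO at 1670694 and 1748074. A number in the tumor column names splits them in 2 sets, the first of 6 GTML with 2 GTS tumors and the second of 2 GTML with 4 GTS tumors. With tumor kind in the model no gene differed between the sets by more than 1.8e-14, so a set term had already been taken out of the deposited values. The tumor table also held an unevenness by chromosome. Set against the DMSO-treated lines, the median gene of a chromosome from 1 to 11 lay between -0.55 and 0.54 log2 in the 14 tumors, while for chromosomes 12 to 19 and X it lay between -2.91 and 1.84. On chromosome 14, which carries Cadps, it was -2.35 to 1.84 in the first set, and on chromosome 6, which carries Cadps2 and Rnf148, it was -0.23 to 0.11 over all tumors. What made it was not tested. In bulk tumors, fewer cells of a type and less RNA per cell cannot be told apart.

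The 250 bases before the annotated start of each gene are shown because an open-chromatin region described below covers the first of them, and because the 3 differ in base composition. They come from RefSeq on GRCm38.p6, all from the minus strand: Cadps2 at chr6:23839422-23839671, Rnf148 at chr6:23655137-23655386 and Cadps at chr14:12823080-12823329. Capitals mark matches to CACGTG, the canonical E-box that MYC-family factors can bind, which reads the same on both strands.
Cadps2: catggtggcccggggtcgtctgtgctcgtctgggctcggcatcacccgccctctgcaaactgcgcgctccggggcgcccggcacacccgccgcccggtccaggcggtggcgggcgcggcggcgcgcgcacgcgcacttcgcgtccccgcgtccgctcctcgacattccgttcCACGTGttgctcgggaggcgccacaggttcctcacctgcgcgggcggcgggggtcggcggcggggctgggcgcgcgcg
Rnf148: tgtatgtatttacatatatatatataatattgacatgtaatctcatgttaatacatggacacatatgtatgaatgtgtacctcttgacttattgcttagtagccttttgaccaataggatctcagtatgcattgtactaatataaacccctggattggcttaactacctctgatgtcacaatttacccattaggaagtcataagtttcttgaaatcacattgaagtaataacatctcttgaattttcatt
Cadps: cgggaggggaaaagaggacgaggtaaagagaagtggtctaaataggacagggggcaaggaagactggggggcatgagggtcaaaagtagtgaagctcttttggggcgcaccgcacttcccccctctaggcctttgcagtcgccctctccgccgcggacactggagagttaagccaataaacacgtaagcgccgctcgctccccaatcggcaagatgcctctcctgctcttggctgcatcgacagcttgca
The Cadps2 window held 44 CG pairs at 78.0% G and C, a number of CG pairs that 0.539% of 32851 promoter windows reached, and 1 CACGTG beginning at position -78. The Rnf148 window held 0 CG pairs at 30.8% G and C. The Cadps window held 14 at 58.0%, a number that 29.4% of windows reached, where the median was 6. CACGTG occurred in 6.02% of all windows and in neither the Rnf148 nor the Cadps window, which says only that these letters are not there.

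Cadps2 was high in every GTS tumor and low in every GTML tumor. In GTML tumors it ranged from 2.53 to 4.43 log2 CPM with a median of 3.29 (n = 8). In the 6 GTS tumors it stood at 9.68, 7.21, 6.65, 9.43, 8.87 and 9.37. The groups did not overlap, GTS tumors 2 and 3 were the lowest of theirs, and even these lay above every GTML tumor. The difference of means, GTS minus GTML, was 5.04 in the first set and 5.29 in the second. Over all genes tested, 1.04% had every GTS tumor above every GTML tumor and 0.809% had every one below; Cadps2 and Rnf148, 2 of the 3 members, were of the first kind, which is what chose them.

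Rnf148 in GTML tumors ranged from -4.38 to -1.04 log2 CPM with a median of -4.35. Of the 8, 5 shared the lowest value that the gene took in their set. In GTS tumors it stood at 4.12, 0.30, 1.77, 5.34, 3.98 and 3.71. Rnf148 passed the filter on low values only through its GTS values, and a lack of overlap was then built in. GTS tumors 2 and 3 were again the lowest, as for Cadps2. Rnf133, the other gene inside Cadps2, ranged from -4.78 to -1.55 in GTML tumors and from -1.60 to 4.85 in GTS tumors, with GTS tumors 2 and 3 lowest again, and it missed the filter.

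**Figure D1:**
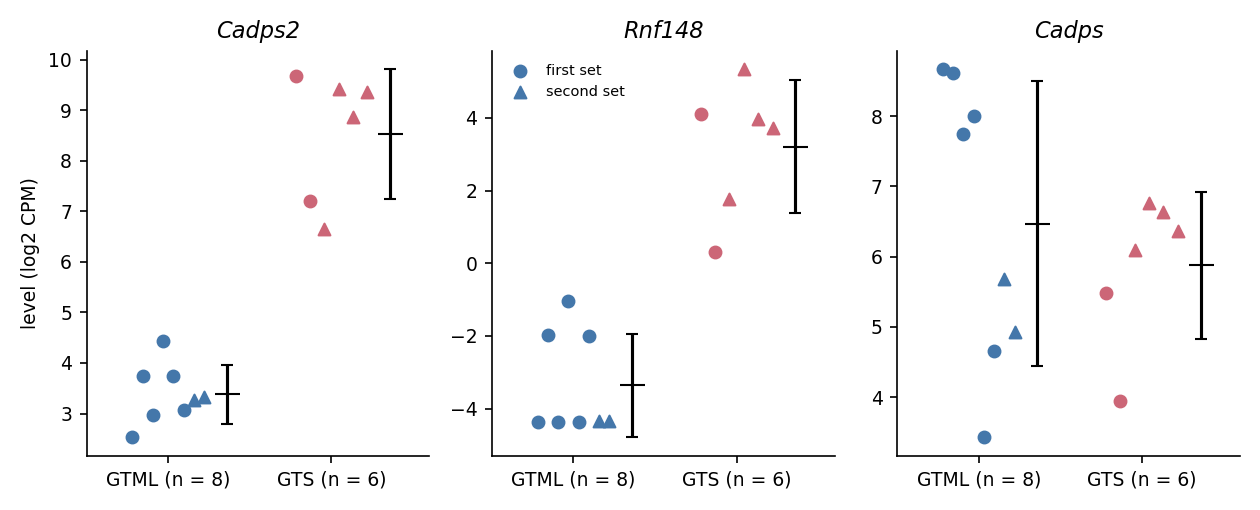
Level of Cadps2, Rnf148 and Cadps (log2 CPM, vertical axes of different range) in each GTML (blue) and GTS (red) tumor; circles and triangles are the first and second set of columns, and the bars give mean and SD. Cadps2 lies between 2.53 and 4.43 in GTML and between 6.65 and 9.68 in GTS tumors, while Cadps overlaps.

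Cadps, the family member on chromosome 14, gave another picture. In GTML tumors it ranged from 3.43 to 8.67 log2 CPM with a median of 6.71, tumors 1 to 4 at 7.74 or more and tumors 5 to 8 at 5.68 or less. In GTS tumors it stood at 5.49, 3.95, 6.10, 6.76, 6.63 and 6.36. The groups overlapped. The difference of means, GTS minus GTML, was -0.59 over all tumors (5.88 ± 1.047 against 6.47 ± 2.031, SD, n = 6 and 8), -2.13 in the first set and 1.15 in the second, so its sign turned with the set. The surrounding genes of chromosome 14 moved alongside. The median of the 30 nearest measured genes ranged from 2.85 to 6.65 log2 CPM over the GTML tumors. Taken relative to that median in the same tumor, Cadps stood at 0.59 to 2.48 in GTML (mean 1.47) and at 0.42 to 2.17 in GTS tumors (mean 1.53), a difference of 0.06. The same step left Cadps2 apart: relative to its 40 nearest measured genes on chromosome 6, it stood at -2.35 to -0.55 in GTML and at 1.51 to 4.57 in GTS tumors, a difference of 4.90.

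**Figure D2:**
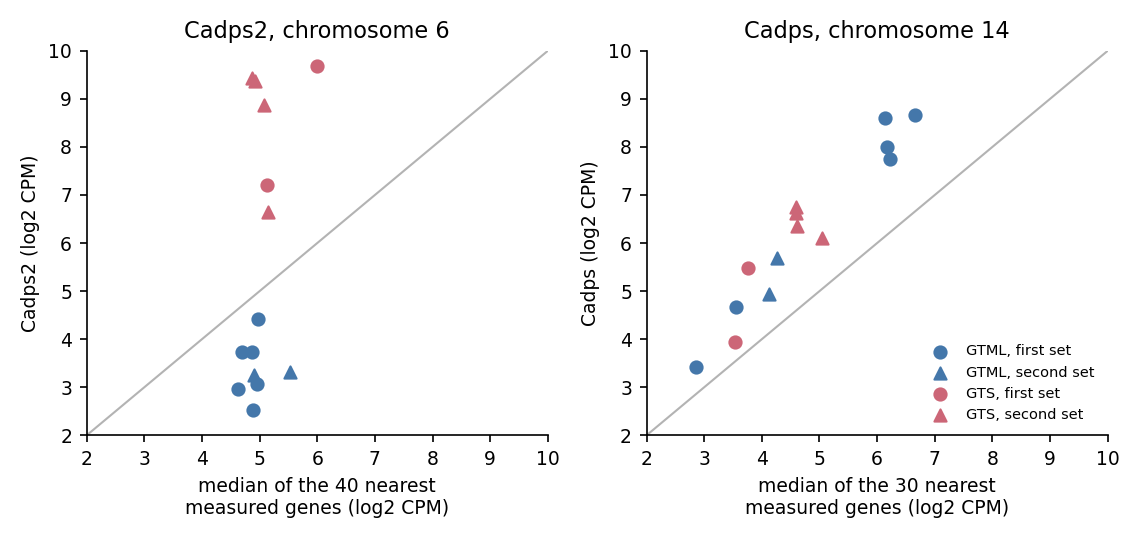
Level of Cadps2 (left) and Cadps (right) in each tumor (vertical, log2 CPM) against the median of the nearest measured genes of its chromosome in the same tumor (horizontal, log2 CPM); the line marks equal values. Cadps follows its neighbours from 2.85 to 6.65, while Cadps2 lies below its neighbours in GTML and above them in GTS tumors.

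Of the 20 genes listed as neighbours of Cadps2, 11 were tested in the tumors and 0 passed limma in either direction, with a median of 0.37 against -0.07 over all genes, where 924 of 15708 (5.88%) passed. At an unadjusted p below 0.05 it was 1 higher and 0 lower. Of the 9 neighbours of Cadps 7 were tested, with 0 passing (1 higher and 0 lower without adjustment) and a median of -0.79. One gene of that list, Prickle2, lies on chromosome 6. Among 53 genes of vesicle priming and fusion, 51 were tested, 6 were higher in GTS tumors and 0 lower (median 0.40). The 4 largest were Rab3b, a vesicle-bound GTPase (2.98, SE 0.529, limma adjusted p = 0.015), Stxbp2, a syntaxin partner (1.88, adjusted p = 0.0202), Vamp8, a vesicle SNARE (1.36, adjusted p = 0.0284), and Nsf, which takes SNARE complexes apart (0.81, adjusted p = 0.02). All 6 were among the 41 tested list genes on chromosomes 1 to 11. The Unc13 genes, which prime vesicles for fusion, did not pass. The differences were 0.40 for Unc13a, 0.30 for Unc13b, 2.02 for Unc13c and 0.60 for Unc13d, with limma adjusted p of 0.213, 0.372, 0.0892 and 0.304. For their relative Baiap3 the difference was 0.11 (limma adjusted p = 0.96).

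Among 20 genes of granule cargo and processing, all 20 were tested, 7 were higher in GTS tumors and 0 lower (median 0.81). They included Bdnf, the neurotrophin (2.88, limma adjusted p = 0.0457), Ptprn, a granule membrane protein (2.36, 0.02), the prohormone convertase gene Pcsk2 (2.15, 0.0202) and Hid1, which acts in granule formation (1.10, 0.02). The Bdnf call held in 3 of 14 removals of a single tumor, with limma adjusted p up to 0.115. The counts moved with single tumors too: the 7 granule genes became 0 without GTS tumor 5 and 9 without GTML tumor 4, and the 6 vesicle genes became 1 without GTS tumor 5 or 6 and 10 without GTS tumor 2. With the set of columns as a further term, limma called 9 genes in all (0.0573%), 0 of the vesicle list and 0 of the granule list, so these calls end there (adjusted p = 0.0669 for Rab3b and 0.0771 for Ptprn). Markers of other cells moved with the tumor kind too. The summed level of 6 of 7 tuft-cell markers ran from 13.0 to 99.3 CPM in GTML and from 78.2 to 1008 in GTS tumors, with 2 of 6 higher in limma. For 6 oligodendrocyte markers the sums were 59.4 to 392.5 and 109.9 to 824.1 with 0 passing (3 higher without adjustment), and for 7 microglial markers 82.3 to 363.3 and 170.1 to 368.3 with 0 passing (1 higher without adjustment). Of the other lists, 2 of 6 Purkinje, 1 of 6 astrocyte and 1 of 9 granule neuron markers were higher, and 0 passed of the T cell, endothelial, mural, ependymal and photoreceptor markers, where 2 T cell and 1 ependymal markers were higher and 3 photoreceptor and 4 granule neuron markers lower without adjustment. The granule neuron sum had a median of 460.4 CPM in GTML and 246.3 in GTS tumors. The marker calls come from the fit without the set of columns as a term. A set term had already been taken out of the values, so the p-values of that fit may be too small. With the term limma called 9 genes in all, and the marker calls under it are not given. The part of these markers in the Cadps2 values was not tested.

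The genes whose levels followed Cadps2 most closely over the 14 tumors were Col19a1 (r = 0.97), Atp2a3, Ndel1, Arap2 and Sema4a (each r = 0.95), among 15708 genes. The 14 points fall in the 2 tumor kinds, so any gene with a like gap between them scores high.

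The treated lines were separate samples, and here the members were tested. Cadps2 stood at 1.01, 1.09 and 2.06 CPM in GTML3 under DMSO and at 2.01, 1.56 and 1.51 under DOX. In preGTS1 it stood at 1.06, 1.96 and 0.84 CPM under DMSO, on 17 to 42 reads, and at 7.24, 6.26 and 6.86 under DOX, on up to 131 reads. On the log2 CPM scale these are means of 0.39 ± 0.565 and 0.75 ± 0.225 in GTML3, and of 0.27 ± 0.632 and 2.76 ± 0.106 in preGTS1 (SD, n = 3). The 3 preGTS1 samples under DOX lay above all others, and the other 3 groups overlapped. In preGTS1 Cadps2 rose with DOX by 2.49 log2, 5.62-fold (SE 0.344, limma adjusted p = 9.37e-06), in a comparison where 68.3% of all genes passed. In GTML3 the difference was 0.36 (95% interval -0.38 to 1.09, limma adjusted p = 0.377), where 65.8% passed. The response was larger in preGTS1 than in GTML3 by 2.13 (SE 0.487, limma adjusted p = 0.00257; 42.2% of genes passed). Without replicate 1 of GTML3 under DOX, the library most unlike its group, these became 0.23 for GTML3 and 2.26 for the difference of responses.

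Under DMSO alone, Cadps2 did not differ detectably between the lines (preGTS1 minus GTML3 -0.12, 95% interval -0.85 to 0.61, limma adjusted p = 0.772), where 66.4% of genes passed. Under DOX it was higher in preGTS1 by 2.01 (limma adjusted p = 7.75e-05), where 72.0% passed. Its level was low in both lines, with at most 7.24 CPM, in a preGTS1 sample under DOX. The table of tumors was processed apart from this one, so levels are not set against each other.

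Cadps had 2, 2 and 6 reads in GTML3 under DMSO and 5, 1 and 8 under DOX, so that it was barely detected in that line. In preGTS1 it had 53, 83 and 45 reads under DMSO and 292, 250 and 283 under DOX. Every preGTS1 sample lay above every GTML3 sample, and the DOX samples of preGTS1 lay above its DMSO samples. With at most 0.448 CPM in GTML3, Cadps passed the filter on low values only through preGTS1, so a difference between the lines was built in and is given without a test. In log2 CPM the means were -2.57 ± 0.796 and -1.93 ± 1.321 in GTML3 and 1.46 ± 0.434 and 4.02 ± 0.075 in preGTS1 (SD, n = 3). The difference of means, preGTS1 minus GTML3, was 4.03 under DMSO and 5.95 under DOX. Cadps rose with DOX in preGTS1 by 2.56 (5.91-fold, SE 0.559, limma adjusted p = 0.000759). The difference in GTML3 was 0.64 (95% interval -0.55 to 1.83, limma adjusted p = 0.329), a line where leaving out replicate 2 under DOX, with 1 read, gave 1.40 (adjusted p = 0.011). The difference of the responses, preGTS1 minus GTML3, was 1.92 (SE 0.791). It rests on the same GTML3 samples of 1 to 8 reads, so it too is given without a test. On the log2(CPM + 1) scale, which draws values below 1 CPM together, it was 2.04, and in DESeq2 it was 1.70.

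**Figure D3:**
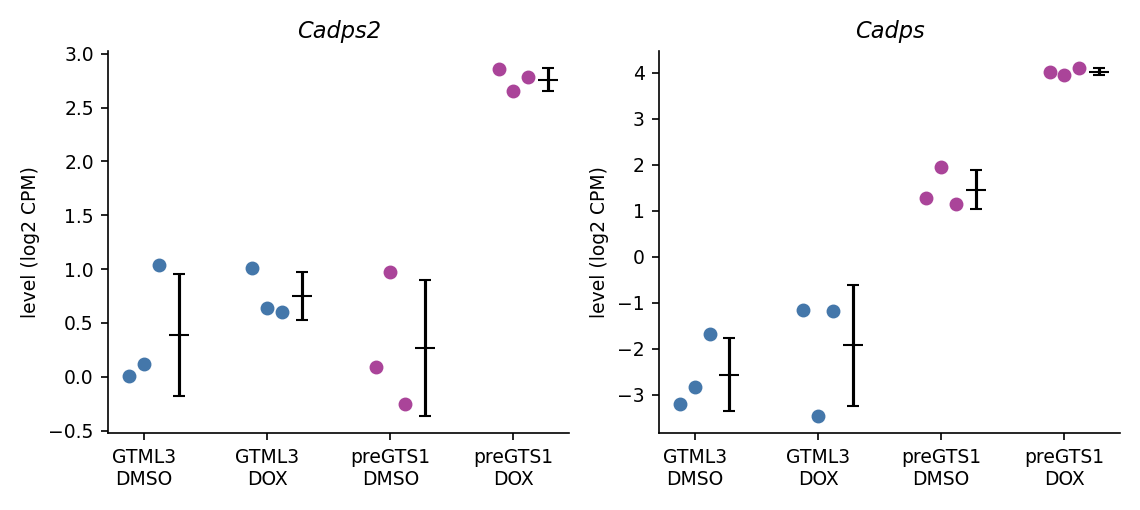
Level (log2 CPM) of Cadps2 (left) and Cadps (right) in each sample of the lines GTML3 (blue) and preGTS1 (purple) under DMSO or DOX; bars give mean and SD of 3 samples. Cadps2 stands at 2.65 to 2.86 in preGTS1 under DOX and at most 1.04 elsewhere; Cadps is higher in preGTS1 than in GTML3 under both conditions.

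The genes around the members did not share one direction. Of 9 tested neighbours of Cadps2, 1 rose and 3 fell with DOX in GTML3 (median -0.33), and 1 rose and 2 fell in preGTS1 (median -0.01); over all genes 34.45% and 34.53% rose, 31.38% and 33.74% fell and the medians were 0.05 and 0.04. Iqub, the gene that rose, changed by 2.63 (limma adjusted p = 5.28e-06) in GTML3 and 0.94 (0.0228) in preGTS1, while the respiratory-chain gene Ndufa5 fell by 0.73 and 1.09 and the cytokine-like gene Fam3c by 0.33 and 0.35. Of 7 tested neighbours of Cadps, 3 rose and 2 fell in GTML3 and 5 rose and 2 fell in preGTS1 (medians 0.68 and 1.33). In preGTS1 the largest rises on chromosome 14 were those of Fhit (3.74, SE 1.056), Synpr, a synaptic vesicle protein gene (1.95), and the receptor phosphatase gene Ptprg (1.33), and the RNA export gene Thoc7 fell by 1.34. Fhit was low and uneven in preGTS1 under DMSO (-2.97 ± 2.843 log2 CPM, SD, n = 3). Its rise ran from 2.14 to 4.86 without single samples.

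Of 42 tested vesicle genes, 27 rose and 4 fell in GTML3 (median 0.80), and 27 rose and 5 fell in preGTS1 (median 1.32), against the all-gene medians and shares given above. In GTML3 the largest rises were those of Baiap3 (4.44), the calcium sensor gene Syt1 (3.52), the SNARE gene Snap25 (3.22) and Cplx2, which clamps SNARE complexes (3.04). In preGTS1 they were Baiap3 (4.16), Snap25 (3.80), Cplx2 (3.3) and Unc13a (3.09). The limma adjusted p of these was at most 0.00438. Baiap3 in preGTS1 was uneven under DMSO (-3.07 ± 2.729 log2 CPM, SD, n = 3), and its rise ran from 2.61 to 5.19 without single samples. Those that fell were led by Rph3al (-1.74), Exph5 (-1.22), Cplx1 (-1.10) and Rab3c (-0.63) in GTML3 and by Vamp3 (-1.04), Rab27a (-0.59), Vamp4 (-0.58) and Snap23 (-0.40) in preGTS1. The Unc13 genes measured here rose in both lines: Unc13a by 0.95 in GTML3, Unc13b by 1.34 and 0.96, and Unc13d by 2.07 and 1.11.

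Of 15 granule cargo genes, 10 rose and 2 fell in GTML3 (median 1.08), and 13 rose and 0 fell in preGTS1 (median 2.26), where 34.45% and 34.53% of all genes rose and 31.38% and 33.74% fell. Chgb, a granin, rose by 3.71 and 4.64. The convertase partner gene Scg5 fell by 4.08 in GTML3, from -1.05 log2 CPM under DMSO to -5.12 ± 1.8 under DOX (SD, n = 3). It was barely detected in that line and passed the filter on low values only through preGTS1. Pam, which amidates peptides, fell by 1.74 in GTML3, from 5.3 to 3.56 log2 CPM. The response was larger in preGTS1 for 10 of the 15 and smaller for 1, where 17.07% of all genes responded more and 25.13% less. For the 42 vesicle genes it was larger for 16 and smaller for 8, with a median difference of -0.07 against -0.1 over all genes. Markers of other cells moved with DOX in both lines. In preGTS1 the summed level of 7 granule neuron markers was 260.9 to 282.1 CPM under DMSO and 728.1 to 776.9 under DOX. In GTML3 it was 484.7 to 498.5 and 402.8 to 432.9. That of 3 Purkinje markers was 241.8 to 280.9 and 422.5 to 476.9 in preGTS1, and 253.0 to 289.9 and 183.4 to 193.2 in GTML3. In preGTS1 the summed level of 3 astrocyte markers was 211.2 to 222.0 CPM under DMSO and 568.8 to 621.6 under DOX. There the sums were 3.82 to 5.41 and 59.8 to 65.6 for 2 endothelial markers. For 4 photoreceptor markers they were 121.5 to 125.8 and 213.5 to 225.2. Of these lists 5 of 7, 3 of 3, 2 of 3, 1 of 2 and 4 of 4 markers rose in limma in preGTS1, and 1 of 3 astrocyte markers fell. In GTML3 the 4 photoreceptor markers summed to 650.8 to 672.0 CPM under DMSO and 1811 to 1865 under DOX, and all 4 rose. There the 3 oligodendrocyte markers went from 20.3 to 23.1 CPM under DMSO to 39.0 to 41.3 under DOX and the 2 endothelial markers from 2.07 to 2.43 to 4.81 to 8.27, with 3 of 3 and 2 of 2 rising, while 3 granule neuron markers rose and 3 fell. In GTML3 the 3 astrocyte markers summed to 53.0 to 60.65 CPM under DMSO and 33.05 to 36.7 under DOX. Of these and of the 3 Purkinje markers, 1 rose and 1 fell in each list. The 3 tuft-cell markers summed to 1.69 to 2.03 CPM under DMSO and 3.49 to 5.06 under DOX in preGTS1, where 2 rose. In GTML3 they summed to 5.96 to 8.11 and 8.46 to 11.08, where 1 rose. The part of all these marker lists in the rise of Cadps2 and Cadps was not tested. Over the 12 line samples, the genes that followed Cadps2 most closely were Ap3s1 (r = 0.97), Nedd9, Arhgap31 (both 0.96), Gpm6b and Cnpy1 (both 0.95); these samples share the 4 groups and so are not independent points.

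The chromatin of Cadps2 was read at its promoter first. Region coordinates are those of the tables, taken as mm9 because the start sites they imply differ from the GRCm38 ones. A region is called where limma's adjusted p is below 0.05 and the difference at least 1 on the log2(CPM + 1) scale. The duplicates of a pair differed by a chi-square of 1.88 to 2.05 per degree of freedom, so exact intervals on reads are too narrow, and the tests compare these libraries and not conditions. The region at the Cadps2 start, chr6:23788733-23789782, reaches from position -361 to position 688 relative to the start and so covers the CG-rich window printed above. It held 1.72 and 1.20 CPM in GTML3 under DMSO, 3.10 and 0 under DOX, 11.8 and 13.9 in preGTS1 under DMSO and 11.7 and 11.3 under DOX. It held 12.0 and 13.9 CPM in GTS1 and 58.2 and 61.5 in GTS2. GTML3 was low in every library, preGTS1 and GTS1 lay together between 11.3 and 13.9, and GTS2 was highest.

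Against GTML3 under DMSO, which all 3 of the next comparisons share, the region was higher by 2.50 in preGTS1 (SE 0.500, limma adjusted p = 0.00244), by 2.51 in GTS1 (adjusted p = 0.00086) and by 4.64 in GTS2 (adjusted p = 1.44e-06). GTML3 had only 5 reads there in both libraries together. The read ratios were 8.84 (95% interval 3.72 to 27.6), 8.66 (3.55 to 27.4) and 41.1 (17.3 to 128). With DOX the region did not pass in preGTS1 (-0.15, SE 0.500, limma adjusted p = 0.931), the line in which Cadps2 RNA rose 5.62-fold, nor in GTML3 (-0.27, adjusted p = 0.806). Without duplicate 1 of GTML3 under DOX the GTML3 difference was -1.29 and passed (limma adjusted p = 0.0485), leaving the duplicate with 0 reads. A smaller region just upstream, chr6:23789813-23790023, held 6.75 and 4.22 CPM in GTS2 and 1.14 and 0 in GTML3 under DMSO (2.12, limma adjusted p = 0.00391). Without duplicate 2 of GTML3 under DMSO this call ended (1.57, limma adjusted p = 0.0602).

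The regions elsewhere in and around Cadps2 differed by source. In GTS2, chr6:23915880-23916393, which lies 126715 bases before the Cadps2 start and 3924 from the bitter taste receptor gene Tas2r118, held 46.4 and 38.6 CPM, against 0 reads in GTML3 under DMSO and at most 1.25 CPM in any other library of that table. The fitted difference was 5.44 (limma adjusted p = 5.35e-07), and GTS2 was 47.7-fold higher against a floor of 3 reads over the group, at least 38.2-fold with counting error allowed for. Also in GTS2, chr6:23727601-23728078, 61582 bases inside the gene, held 20.2 and 17.5 CPM against 1.72 and 1.20 in GTML3 (3.02, limma adjusted p = 0.000239; read ratio 12.7, 5.13 to 40.9). Neither region was called in GTS1 or preGTS1.

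With DOX other regions moved. Deep inside the gene, chr6:23655847-23657038 lies 132979 bases after the Cadps2 start and is the listed region nearest to the Rnf148 start, at 51306 bases. It held 4.0 and 5.39 CPM in GTML3 under DMSO and 16.5 and 12.1 under DOX, and 11.1 and 12.7 in preGTS1 under DMSO and 47.9 and 47.7 under DOX. The DOX libraries were higher in both lines, by 1.42 in GTML3 (limma adjusted p = 0.049) and by 1.92 in preGTS1 (adjusted p = 0.0129). The GTS libraries held 3.25 to 9.65 CPM there. Both calls ended when single libraries were left out: the limma adjusted p then lay between 0.0206 and 0.176 for GTML3, and for preGTS1 between 0.00456 and 0.197. In preGTS1, chr6:23813200-23813662 and chr6:23823883-23824342, 24010 and 34691 bases before the start, were higher with DOX by 2.04 and 2.14 (limma adjusted p = 0.0286 and 0.0248), the second at 1.04 and 1.16 CPM under DMSO and 7.90 and 8.55 under DOX. In GTML3 the DOX differences there were 1.40 (SE 0.482, limma adjusted p = 0.106) and 0.42 (adjusted p = 0.675), and the difference between the lines was not tested. The preGTS1 calls ended in 5 and 4 of 12 removals of a single library, with limma adjusted p up to 0.319 and 0.26. In GTML3, chr6:23698252-23698605 was higher by 2.22 (limma adjusted p = 0.0278) from 2 reads in all under DMSO. That call ended in 5 of 12 removals (limma adjusted p up to 0.142) and held in 1 of 3 other settings.

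**Figure D4:**
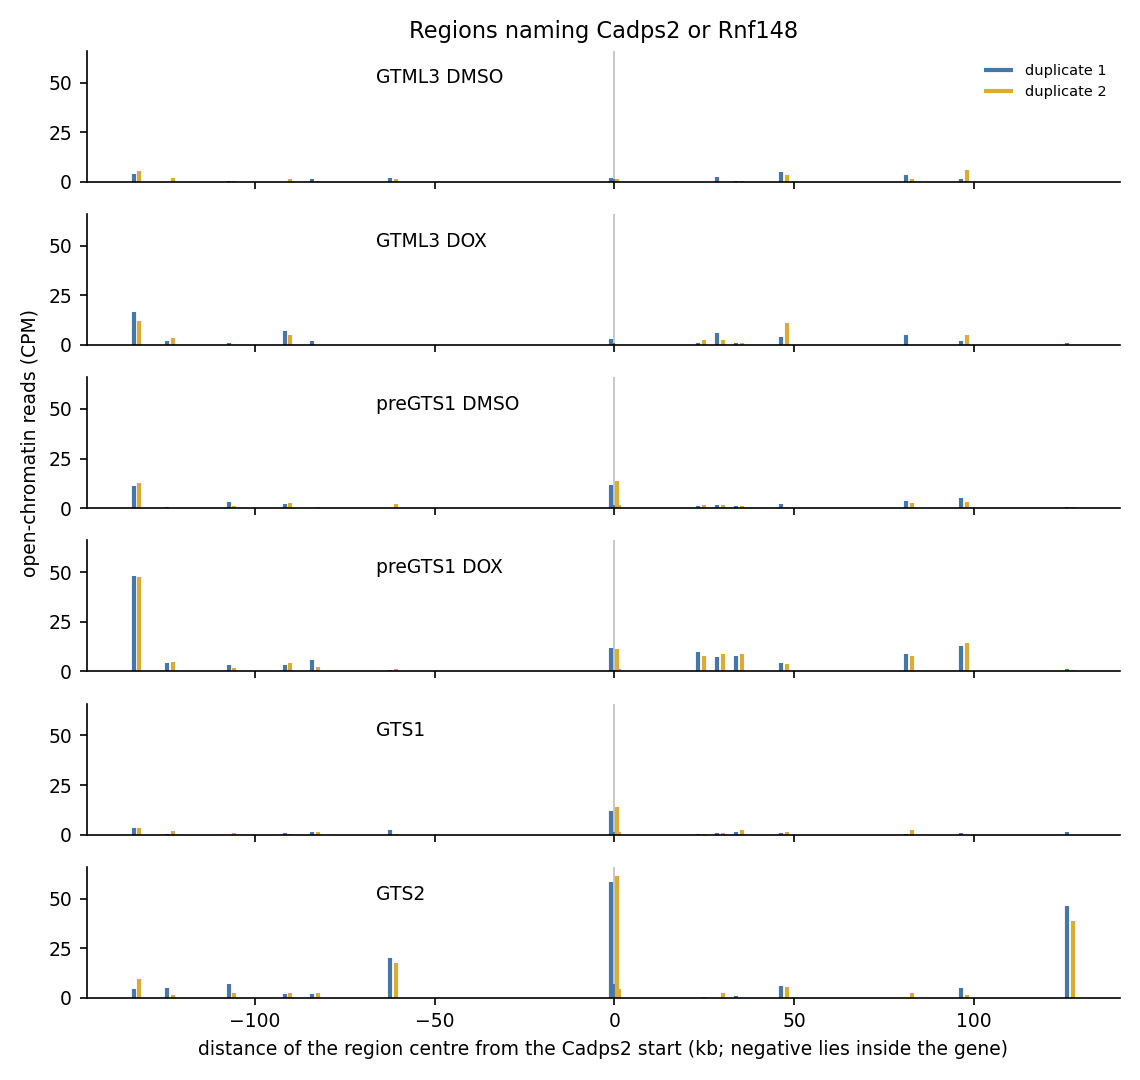
Open-chromatin reads (CPM) in the 15 regions on chromosome 6, placed by the distance of their centres from the Cadps2 start in kb; the gene body lies to the left of 0, and the bars of the 2 colours are the duplicates of each source. GTS2 is highest at the start and at the far right, and preGTS1 under DOX at the far left.

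The Cadps promoter region, chr14:13654211-13655660, ran the other way in the GTS sources. It held 9.73 and 6.58 CPM in GTML3 under DMSO, 12.4 and 9.67 under DOX, 23.7 and 22.6 in preGTS1 under DMSO and 25.1 and 21.03 under DOX. It held 1.0 and 1.92 CPM in GTS1 and 0 and 2.41 in GTS2. The 4 GTS libraries lay below all 8 others. Against GTML3 under DMSO the difference was -1.90 in GTS1 (SE 0.503, limma adjusted p = 0.00723) and -2.29 in GTS2 (adjusted p = 0.00136), on 8 and 4 reads. Without duplicate 1 of GTML3 under DMSO or of GTS1, the GTS1 call ended (limma adjusted p = 0.0759 and 0.0772). For preGTS1 the difference was 1.42 (limma adjusted p = 0.0605), which missed the threshold. Within the gene, chr14:13238992-13239713 was lower in GTS2 than in GTML3 under DMSO by 2.05 (limma adjusted p = 0.00491), a call that ended in 2 of 12 removals of a single library (adjusted p up to 0.0837). chr14:13221546-13222033 was higher in preGTS1 than in GTML3 under DMSO by 2.38 (limma adjusted p = 0.00188) and passed in all 12 removals. chr14:13225864-13226398 was higher by 2.78 (limma adjusted p = 0.00586), from 2.06 to 3.5 without single libraries, and that call ended in 3 of 12 (adjusted p up to 0.0887).

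Counted over the 30 regions of the members, 2 were higher and 0 lower with DOX in GTML3, where 3.42% of all regions were called, and 3 and 0 in preGTS1, where 3.0% were. These DOX counts moved as single libraries were left out. In edgeR they were 0 and 15, the latter where 18201 of all 88981 regions were called. Between the lines under DMSO 5 were higher in preGTS1 and 0 lower (15.1% called). Against GTML3, 1 was higher and 1 lower in GTS1 (28.5% called), and 7 higher and 2 lower in GTS2 (36.3% called); the calls in GTS1 and GTS2 share their controls. On chromosome 6 the summed CPM of the 15 regions was 22.9 and 23.3 in GTML3 under DMSO and 53.7 and 42.3 under DOX. In preGTS1 it was 46.4 and 46.3 under DMSO and 129.6 and 125.7 under DOX. In GTS1 it was 27.3 and 31.7, and in GTS2 162.8 and 152.0.

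None of the 27 regions of the members in the separate table of GFP and NoneGFP fractions was called. Inside Cadps2 2 of them passed limma with a difference below 1, both higher in GFP. The share of all regions that passed limma at any difference is not given here. Among all regions called, 612 were higher and 27 lower in GFP, so that direction was the common one. At chr6:23727577-23728130, which overlaps the region that stood out in GTS2, GFP held 5.47 and 7.96 and NoneGFP 2.32 and 4.61 CPM (0.82, SE 0.224, limma adjusted p = 0.0151). At chr6:23743037-23743613 GFP held 9.71 and 8.27 and NoneGFP 5.80 and 5.02 CPM (0.64, SE 0.197, limma adjusted p = 0.0393). The GFP libraries lay above the NoneGFP libraries at both. The Cadps2 promoter region, chr6:23788398-23789902, held 33.2 and 36.4 CPM in GFP and 34.1 and 39.7 in NoneGFP libraries, a difference of -0.08 (SE 0.098, limma adjusted p = 0.761). The upstream region near Tas2r118, chr6:23915759-23916463, held 29.2 and 31.9 in GFP and 32.4 and 30.8 in NoneGFP, so it held reads in both fractions. The Cadps promoter region, chr14:13654047-13655715, held 51.2 to 54.6 CPM in all 4 libraries. The count of calls was 0 in limma and in edgeR (3 higher and 0 lower, and 3 and 1, at an unadjusted p below 0.05), where 0.724% of all regions were. By at least 1 base, 9 of the 30 regions (30.0%) overlapped 8 of these 27 (29.6%). The tables were scaled separately, so their levels are not compared.

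In single cells Cadps2 was found in most cells of both libraries. It had 17440 UMIs in GTML_SOX9-GFP, a level of 182 CPM of all UMIs of the library (exact Poisson 95% interval 179.3 to 184.7), and 13393 in fGTS2, 129.7 CPM (127.5 to 131.9). These intervals cover counting error only, and with 1 library of each kind there is no test between them. The share of cells with at least 1 UMI was 85.1% in GTML_SOX9-GFP (exact binomial 95% interval 84.1 to 86.1) and 85.0% in fGTS2 (83.9 to 86.0). With each cell thinned to 5000 UMIs, leaving out 108 and 140 shallower cells, the shares were 53.8% and 44.6%. A cell held a median of 3 and of 2 Cadps2 UMIs and at most 38 and 35, and 691 and 676 cells held none. The GTML library was thus the higher of the pair, whereas among the bulk tumors GTML was the low kind. With 1 library for each kind, library and kind cannot be told apart.

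**Figure D5:**
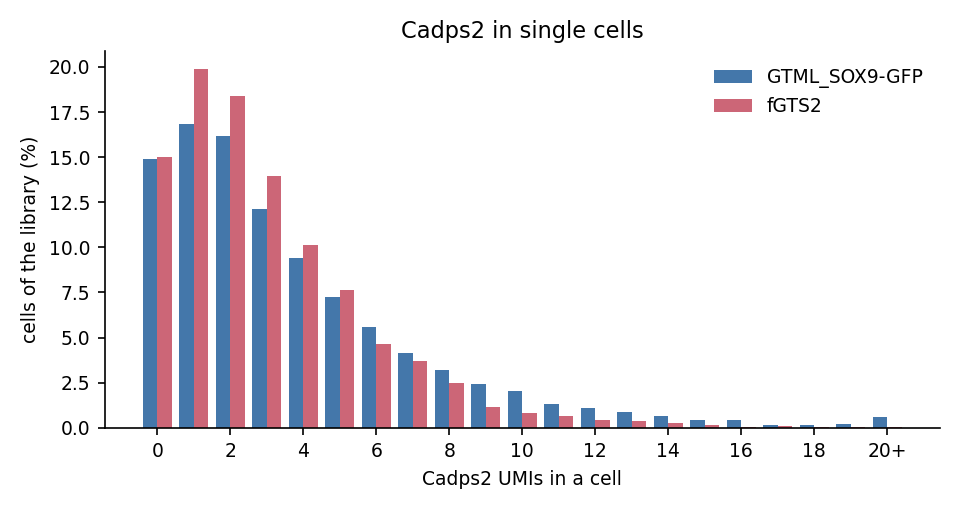
Share of cells (%) by the number of Cadps2 UMIs they hold, in GTML_SOX9-GFP (blue, 4645 cells) and fGTS2 (red, 4498 cells); the last bar joins 20 or more. Both libraries peak at low numbers with a tail up to 38 and 35.

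Cells of both libraries carried tuft-cell markers. At least 3 of the 7 were present in 2094 of 4645 GTML_SOX9-GFP cells and in 4149 of 4498 fGTS2 cells, and their summed level was 270.4 and 827.2 CPM, so that list was higher in the library with less Cadps2. At least 3 mural markers were found in 0 cells of either library, and at least 3 microglial or endothelial markers in 0 cells of GTML_SOX9-GFP. Only 3 genes of each of those lists were listed there. Fewer than 3 T cell and ependymal markers were listed in either library, and fewer than 3 microglial and endothelial ones in fGTS2. No cell could reach 3 there, so those lists say nothing of such cells. At least 3 oligodendrocyte markers were found in 24 and 92 cells, 3 granule neuron markers in 16 and 15, and 3 Purkinje markers in 3 and 0. The share of these cells with a Cadps2 UMI was not measured, so no background share is given. Among 9431 and 8842 genes found in at least 10% of cells, those that followed Cadps2 most closely across cells were Kctd12 and Plcb2 (both r = 0.38), Gnb3 (0.35), Gnat3 and Lrmp (both 0.34) in GTML_SOX9-GFP, and Lrmp (0.29), Gnat3 (0.28), Cap1 (0.27) and Basp1 (0.25) in fGTS2. These are descriptions over 4645 and 4498 cells of single libraries. Lrmp and Gnat3 were named in both. Because Gnat3 ranks by its likeness to Cadps2 in these same cells, a gap in a split by it was built in. The split values below restate that likeness and add no support. In GTML_SOX9-GFP, the 3929 cells with a UMI of Gnat3, the taste-cell G protein alpha subunit gene, held Cadps2 at 188.5 CPM (185.6 to 191.5) and the 716 without it 133.3 (126.6 to 140.2). In fGTS2 the values were 175.5 (170.9 to 180.3) in 1234 cells and 110.6 (108.2 to 113.0) in 3264.

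Splitting the cells by Sox9, the gene whose promoter drives the GTS model, gave intervals that overlapped in GTML_SOX9-GFP and lay apart in fGTS2. Cells with a Sox9 UMI held Cadps2 at 176.2 CPM (169.7 to 182.9) against 183.2 (180.2 to 186.1) without one in GTML_SOX9-GFP, and 134.4 (131.8 to 137.1) against 118.1 (114.2 to 122.0) in fGTS2. Cells with a UMI of Mki67, a gene of cycling cells, held 172.6 against 209.8 in GTML_SOX9-GFP and 127.1 against 133.8 in fGTS2. Deeper cells more often hold a UMI of the splitting gene: the median depth was 21230 UMIs with and 15100 without Mki67 in GTML_SOX9-GFP. For Sox9 it was 22670 with and 18150 without in that library.

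The nested gene and the family member were rare in cells. Rnf148 had 66 UMIs in GTML_SOX9-GFP, 0.689 CPM (0.533 to 0.876), and 67 in fGTS2, 0.649 (0.503 to 0.824), so the intervals overlap. Rnf133 had 39 and 55. Cells with an Rnf148 UMI, 64 and 66 in number, held Cadps2 at 229.4 CPM (206.8 to 253.8) against 181.2 in the other cells of GTML_SOX9-GFP, and 164.2 (146.4 to 183.6) against 129.0 in fGTS2. Cadps had 817 UMIs in GTML_SOX9-GFP, 8.53 CPM (7.95 to 9.13), in 14.7% of cells, and 304 in fGTS2, 2.94 CPM (2.62 to 3.29), in 6.18%. After thinning these shares were 4.36% and 1.26%. Cells with a Cadps UMI held more Cadps2 than those without in both libraries, 209.2 against 176.4 and 150.7 against 128.0 CPM.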

How the data were processed

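Per the labels' protocols, bulk RNA (Trizol, then RNeasy) was sequenced on an Ion Torrent instrument, open chromatin came from standard ATAC-seq and cells from 10x Chromium 3' v3 libraries. Builds mm10 and mm9 stand in the submitters' processing notes. So do MACS2, edgeR and limma, Seurat 3.0 with Cell Ranger 3.3.0, and Subread 1.5.2, STAR 2.4.0 and Bowtie2 2.2, none with a stated role. Both bulk RNA tables hold log2 CPM as deposited by the authors, where plain CPM had been planned for, and no counts. Both region tables hold CPM over the listed regions, scaled by the authors; 2 entries naming no region were left out, and 0 columns went unused. Single-cell tables hold UMI counts per gene and cell as deposited by the authors.

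Genes needed 1 CPM in at least 3 line samples or 6 tumors. Log2 CPM, or log2(CPM + 1) for regions, was fitted with limma 3.58.1 (R 4.3.3) over all groups of a table, with Benjamini-Hochberg adjustment over all its features and a threshold of 0.05. Whole reads were recovered for 100% of values in the line and region tables within 0.1 read, and edgeR 4.0.16 and DESeq2 1.42.0 were run on them as alternatives. Other steps used Python 3.11.15, numpy 2.4.6, pandas 2.3.3, scipy 1.17.1 and matplotlib 3.10.9. The procedures were tested on simulated data. Line samples follow their titles; their descriptions name another column.

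The members and the gene lists were chosen with earlier results of these data known. Named with values are the members, the Unc13 family, up to 4 passing genes per list and direction, the 5 genes most like Cadps2, promoter regions within 1 kb of a start and up to 3 called regions per comparison and direction. Sox9, Mki67 and Gnat3 as splitting genes, Rnf133 in cells, and in the GFP table the region near Tas2r118 and the 2 regions inside Cadps2 were named after their values were seen. One result under this rule is not reported here. Doublets were not called, and cells were taken as deposited.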

Additional observations from a re-analysis of the deposited data

Results flagged for a closer look

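The response of Cadps2 to DOX differed between the lines. The preGTS1 response exceeded that of GTML3 by 2.13 on the log2 scale (SE 0.487, limma adjusted p for the interaction = 0.00257), from 0.36 in GTML3 and 2.49 in preGTS1, with all 3 preGTS1 samples under DOX above the other 9 samples. Among all genes 42.2% passed that interaction test.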

How the results depend on the processing

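Precision was limited by reads: GTML3 held 5 reads at the Cadps2 promoter region and 1 to 8 reads of Cadps RNA per sample, and cells came from 1 library of each kind. Over all alternatives and removals of single libraries, 2137 values stayed the same, 87 weakened, 14 strengthened, 100 moved and 20 reversed. A test stayed the same where it kept its direction and side of the threshold. A count did so where it stayed near the main count, and a level in cells where it stayed inside the Poisson interval. Causes were not tested unless stated.

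In the tumors, limma called 9 genes with a term for the set of columns, 514 after median centring, 1620 when fitted on chromosomes 1 to 11 alone and 0 on chromosomes 12 to 19 and X alone (the last pair added after seeing the data), and 110 (without GTS tumor 5) to 1530 (without GTS tumor 3) when single tumors were left out. The Rnf148 difference was 3.26 on the log2(CPM + 1) scale. That of Cadps turned to 1.15 in the second set of columns and to 0.06 relative to its neighbours, and that of Baiap3 ran from -0.39 to 0.79 without single tumors.

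In the lines, the difference of the Cadps responses was 2.04 with log2(CPM + 1), 1.70 in DESeq2 and 1.16 to 2.31 without single samples. The Cadps difference in GTML3 ran from 0.26 to 1.40, and the Cadps2 difference between the lines under DMSO from -0.47 to 0.20.

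For all regions, a pseudocount of 0.25 CPM gave 1657 calls for DOX in GTML3, 465 for DOX in preGTS1, 7451 between the lines and 985 between GFP and NoneGFP. A mean of at least 5 CPM gave 8293 calls between the lines, 15103 for GTS1, 17521 for GTS2 and 152 for GFP, where fewer regions were tested. edgeR gave 18201 for DOX in preGTS1 and 1050 for GFP. Without single libraries the counts were 659 to 7681, 126 to 6963, 4735 to 18293 and 424 to 872 for DOX in GTML3, DOX in preGTS1, the lines and GFP.

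Among the members' regions, the pseudocount gave 0, 0, 2 and 1 calls for DOX in GTML3, DOX in preGTS1, the lines and GTS1, the mean of 5 CPM gave 1, 1 and 4 for DOX in GTML3, DOX in preGTS1 and GTS2, and edgeR gave 0 and 15 for the DOX comparisons. Without single libraries the calls were 0 to 3, 0 to 6, 2 to 7, 1 to 4, 5 to 10 and 0 to 1 in the order DOX in GTML3, DOX in preGTS1, lines, GTS1, GTS2 and GFP. The Cadps promoter region passed between the lines at a mean of 5 CPM (1.42) and in edgeR (1.54), with 1.17 to 1.67 without single libraries. Its GTS1 difference missed the threshold with the lower pseudocount (-2.33), with -2.17 to -1.63 without single libraries. Differences that were not called changed sign without single libraries. They ran from -1.29 (a call there, limma adjusted p = 0.0485, without GTML3 DOX duplicate 1) to 0.75 and from -0.59 to 0.51 for the Cadps2 promoter regions with DOX in GTML3, from -0.13 to 0.11 for the Cadps promoter with DOX in preGTS1, and -0.07 to 0.02, -0.18 to 0.03 and -0.19 to 0.15 for the GFP table's Cadps, Cadps2 and second Cadps2 promoter regions.

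Replicate numbers did not pair the line samples (correlations of -0.15 to 0.07). With the replicate block, the Cadps2 response in preGTS1 was 2.49 and the members' regions called for DOX in GTML3 were 1. In cells, Cadps2 stood at 191.6 CPM as a mean of cells and 193.4 thinned in GTML_SOX9-GFP and at 132.9 and 132.1 in fGTS2, and thinned Cadps at 9.213 and 2.616.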
